A study of Mus musculus with 8 samples.

Results

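Loss of the transcription factor c-Maf from the liver endothelium was accompanied by a more than 3-fold lower signal at a small set of open chromatin regions. Of 58522 peaks listed by ATAC-seq, a method in which a transposase cuts and tags accessible DNA, 417 (0.713%) had a mean signal in MafLSEC-KO of at most 1/3 of the control mean, with every knockout library below every control library. These 417 peaks, called lost peaks here, were chosen by that difference, so their levels are given as a description and carry no test. They were found in liver sinusoidal endothelial cells (LSECs) of mice aged 12 weeks, with 4 control and 4 MafLSEC-KO libraries. MafLSEC-KO mice carried Clec4g-iCre tg/wt together with Maf fl/fl, so that Cre, driven from a Clec4g transgene, removed the floxed part of Maf in sinusoidal endothelium. Controls were littermates without Cre that carried Maf fl/fl or Maf fl/wt. Hepatic endothelial cells were enriched on magnetic beads against CD146, a marker that endothelium of larger liver vessels carries too, and 50000 cells entered each tagmentation. The labels name 3 mice but 4 libraries in each group, and in the study's isolation method the livers of 3 mice were combined before digestion. Whether the 4 libraries of a group came from 1 such pool or from several is not stated, so the spread between libraries, and every p-value resting on it, may be technical.

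c-Maf belongs to the large Maf proteins, basic leucine zipper factors that activate transcription. Maf dimers bind Maf recognition elements (MAREs), palindromes whose centre resembles the site of the related AP-1 factors and whose arms carry the letters TGCTGA, called the MARE core here, with TGCTGAC as its extended form. LSECs are fenestrated scavenger cells without a continuous basement membrane, known for the receptors Stab1, Stab2 and Fcgr2b, and c-Maf is one of the transcription factors that mark them. Many transcription factors act from enhancers, which lie in introns or between genes and which ATAC-seq shows as narrow peaks of open chromatin.

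The sequences of 10 lost peaks are shown because they cover the deepest losses and known sinusoidal genes, and because they let the MARE core be seen in place. Each is the central 200 bases of the peak on the plus strand of mm10 (the GRCm38 reference genome of NCBI RefSeq), and capitals mark the MARE core on either strand, so that TCAGCA is the core read on the other strand. The first 4 are among the deepest losses, in order of residual signal. Mphosph9 was at chr5:124296561-124296760 and Zmat4 at chr8:23956863-23957062, both in introns, and Caap1 at chr4:94385774-94385973 and Gmpr at chr13:45475407-45475606, both intergenic. The window of Unc5a was at chr13:54916750-54916949, that nearest to Stab1 at chr14:31181648-31181847 in an intron of Nisch, and that upstream of Stab2 at chr10:87012248-87012447. Fcgr2b was at chr1:170974231-170974430, Dpp4 at chr2:62392441-62392640 and Mafa at chr15:75791238-75791437 in an intron of Zc3h3.
Mphosph9: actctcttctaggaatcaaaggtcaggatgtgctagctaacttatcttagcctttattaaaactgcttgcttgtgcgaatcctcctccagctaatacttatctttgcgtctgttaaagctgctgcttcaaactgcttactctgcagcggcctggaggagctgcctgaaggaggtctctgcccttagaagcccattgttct
Caap1: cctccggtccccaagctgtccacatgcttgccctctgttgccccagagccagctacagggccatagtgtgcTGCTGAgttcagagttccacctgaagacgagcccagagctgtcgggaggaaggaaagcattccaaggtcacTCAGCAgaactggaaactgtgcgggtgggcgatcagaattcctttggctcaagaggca
Zmat4: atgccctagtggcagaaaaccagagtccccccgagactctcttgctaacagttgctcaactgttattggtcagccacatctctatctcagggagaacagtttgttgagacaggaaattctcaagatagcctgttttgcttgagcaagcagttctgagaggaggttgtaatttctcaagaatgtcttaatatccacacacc
Gmpr: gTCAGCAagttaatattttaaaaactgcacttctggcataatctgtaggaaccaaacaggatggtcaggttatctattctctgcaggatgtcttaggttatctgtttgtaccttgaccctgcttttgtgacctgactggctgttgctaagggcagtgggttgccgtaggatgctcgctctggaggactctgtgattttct
Unc5a: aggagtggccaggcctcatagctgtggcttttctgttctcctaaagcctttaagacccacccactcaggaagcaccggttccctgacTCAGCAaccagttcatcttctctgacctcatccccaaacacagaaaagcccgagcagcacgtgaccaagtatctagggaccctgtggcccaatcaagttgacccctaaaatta
Stab1: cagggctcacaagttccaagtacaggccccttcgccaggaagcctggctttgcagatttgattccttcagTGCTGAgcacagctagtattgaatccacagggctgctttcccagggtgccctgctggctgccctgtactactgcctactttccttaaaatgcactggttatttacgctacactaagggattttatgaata
Stab2: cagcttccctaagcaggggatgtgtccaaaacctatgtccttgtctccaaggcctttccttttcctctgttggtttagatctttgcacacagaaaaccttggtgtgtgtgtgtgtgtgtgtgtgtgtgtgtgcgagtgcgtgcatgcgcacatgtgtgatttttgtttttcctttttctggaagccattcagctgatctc
Fcgr2b: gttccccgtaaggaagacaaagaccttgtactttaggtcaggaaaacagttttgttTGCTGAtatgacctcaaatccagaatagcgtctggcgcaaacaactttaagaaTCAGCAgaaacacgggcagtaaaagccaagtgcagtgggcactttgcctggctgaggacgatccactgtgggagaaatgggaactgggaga
Dpp4: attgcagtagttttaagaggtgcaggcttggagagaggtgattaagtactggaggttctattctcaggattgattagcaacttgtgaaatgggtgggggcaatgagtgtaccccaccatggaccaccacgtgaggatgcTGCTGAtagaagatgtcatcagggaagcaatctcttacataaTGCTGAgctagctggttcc
Mafa: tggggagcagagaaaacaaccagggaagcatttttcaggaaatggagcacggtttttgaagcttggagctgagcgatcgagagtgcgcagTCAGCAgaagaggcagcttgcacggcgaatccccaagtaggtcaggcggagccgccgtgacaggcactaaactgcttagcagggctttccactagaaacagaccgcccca
The windows of Caap1, Fcgr2b and Dpp4 held 2 cores each, those of Gmpr, Unc5a, Stab1 and Mafa held 1, and those of Mphosph9, Zmat4 and Stab2 held 0.

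The lost peaks were well above the floor of the table in control cells and sank close to it in knockout cells. The deposited normalised count, a read count divided by 1 size factor per library, had a median of 79.5 over the 417 control means (14.6 to 573) and of 19.7 over the MafLSEC-KO means (3.22 to 125). The residual signal, the MafLSEC-KO mean in percent of the control mean, had a median of 27.2% (quartiles 23.7% and 30.5%) and ran from 13.1% to 33.3%. At 279 peaks the signal was 3- to 4-fold lower, at 90 it was 4- to 5-fold lower, at 33 it was 5- to 6-fold lower and at 15 it was lower still, up to 7.64-fold. No lost peak was without reads in any knockout library, and 39 fell under 10% of the control mean in at least 1 of them. The residual hardly followed the control level across the 417 peaks (Spearman rho -0.048), which share libraries and a limit on the residual.

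**Figure D1:**
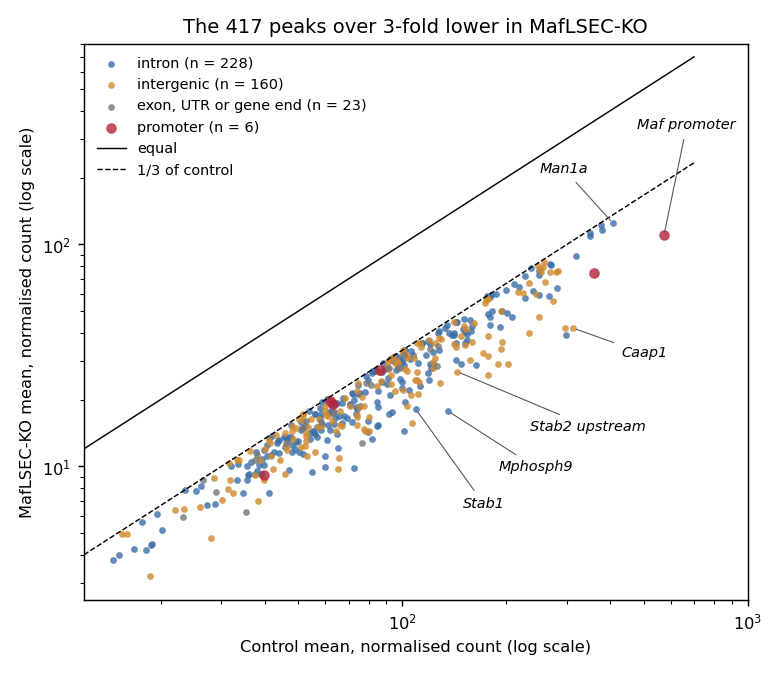
Mean normalised count in MafLSEC-KO (vertical axis) against control (horizontal axis) for the 417 lost peaks, both on log scales, each point 1 peak averaged over 4 libraries and coloured by annotation. All points lie under the dashed line at 1/3 of control by the way they were chosen, and the Maf promoter peak stands at the right, at 573 in control and 110 in MafLSEC-KO.

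Relative to all listed peaks, the lost peaks went from the upper part of the range to near its bottom. In RPKM, read counts scaled to peak width and library depth, their median was 23.1 in control cells, at the 73.9th percentile of all listed peaks, and 365 of 417 lay above the median of the table. In MafLSEC-KO their median was 5.86, at the 4.4th percentile, and 1 of 417 lay above the median. The lowest mean over the 8 libraries of any listed peak was 6.05 RPKM. The MafLSEC-KO mean of 222 lost peaks (53.2%) was under that value, compared with 4.55% of the other peaks. The choice of peaks by a low knockout signal made such a contrast likely. Fewer cells with an open region and less opening per cell cannot be told apart in these bulk libraries.

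Each knockout library showed the loss to nearly the same depth. The median over the lost peaks was 24.8%, 25.3%, 26.8% and 27.2% of the control mean in MafLSEC-KO replicates 1 to 4. Control libraries were less alike, at 84.8%, 103.7%, 85.01% and 124.9% in replicates 1 to 4, and control replicate 4 was the highest control at 261 of the 417 peaks. Read depth moved with this order: control replicates 1 and 3 had 5367124 and 5529802 counts in peaks, control replicate 2 had 8159726 and control replicate 4 had 13364062, while MafLSEC-KO libraries had 6783573 to 11614365. At the peaks that were not lost the controls ran in the same order with a smaller spread, from 92.6% in replicate 1 to 112.6% in replicate 4 when each was set against the other 3. The part of depth in the spread among controls was not tested. Lost peaks took 0.470% to 0.562% of counts in control libraries and 0.123% to 0.137% in MafLSEC-KO libraries.

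To read the loss in a library that had no say in the choice, the peaks were chosen again with 1 library left out at a time, a step added after the values had been seen. In the MafLSEC-KO library left out, the median signal was 27.6%, 27.9%, 29.2% and 31.4% of control for replicates 1 to 4, at 445, 435, 465 and 493 peaks. It was below every control library at 94.2%, 96.6%, 94.0% and 95.5% of these peaks. Those control libraries had themselves taken part in the choice. If the libraries of a group came from 1 pool, the library left out is a technical repeat and not an independent check. When control replicate 4 was left out, 381 peaks were chosen, and replicate 4 lay above every knockout library at 336 of them (88.2%), the lowest of the 4 control shares.

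**Figure D2:**
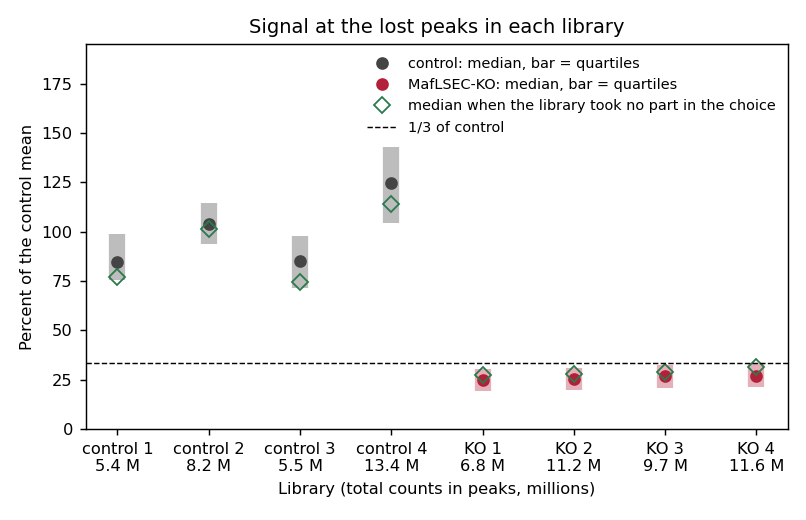
Signal at the 417 lost peaks in each library, in percent of the control mean (vertical axis), with the median as a circle, the quartiles as a bar and the total count in M under the library name. Diamonds give the median in a library at peaks chosen without it: the 4 knockout diamonds lie between 27.6% and 31.4%, and the control diamonds between 74.5% and 114.0%.

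Nearly all lost peaks lay away from promoters. Of 417, 228 were intronic (54.7%, against 42.8% of all listed peaks) and 160 were intergenic (38.4%, 95% Wilson interval 33.8% to 43.1%, against 35.7%). There were 15 in exons, 4 in 3′ untranslated regions, 3 at gene ends and 1 in a 5′ untranslated region. Promoters held 6 of 417 (1.44%, interval 0.661% to 3.10%) against 13.2% of all listed peaks. No lost peak was annotated to a CpG island, compared with 2.90% of the table. First introns held 63 of the 228 intronic peaks (27.6%, against 37.8% of all intronic peaks). These shares are counts of peaks and were not tested.

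The median distance to the nearest transcription start was 32757 bases (quartiles 12064 and 82368), against 16186 bases for all listed peaks, and 91 of 417 (21.8%) lay 100000 bases or more away, against 11.8%. In total, 154 (36.9%) lay upstream of the nearest start, against 40.6%. Median width was 401 bases against 573, and median GC content of the central 300 bases was 47.0% against 50.0%. Peaks that had lost 2- to 3-fold (1019 peaks) were alike in these measures, with a median distance of 30809 bases, a width of 430 bases and 1.96% at promoters. The 521 peaks over 3-fold higher shared most of these traits, with a median distance of 32936 bases, 24.2% at 100000 bases or more, 1.92% at promoters, a GC content of 46.7% and a width of 497 bases. Distance from starts and scarcity at promoters were thus seen in both directions. Within the lost peaks, the 139 with the lowest residual had a median distance of 40845 bases and 44.6% intergenic members, while the 139 with the highest residual had 31241 bases and 37.4%. The 139 between them had 28270 bases and 33.1%, so neither measure moved steadily with the residual. Long terminal repeats, the ends of endogenous retroviruses, held 35 lost peaks (8.39%, against 4.75% of all listed peaks and 7.29% of those over 3-fold higher), whereas LINE (5.28% against 5.03%) and SINE repeats (3.60% against 3.63%) were near the table as a whole.

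Many lost peaks carried the MARE core near their centre. The letters TGCTGA, searched on both strands in the central 300 bases, were in 255 of 417 windows (61.2%, 95% Wilson interval 56.4% to 65.7%), against 22.7% of the windows of all listed peaks and 24.1% of those in introns or between genes. They were in 44.9% of the 1019 peaks that were 2- to 3-fold lower and in 18.04% of the 521 peaks over 3-fold higher. The extended letters TGCTGAC, which contain the core, were in 122 windows (29.3%, against 5.98%). In all, 169 windows held 1 core, 69 held 2 and 17 held 3 or more, and 162 held none. The share was 66.7% among lost intronic peaks (24.7% of all intronic peaks) and 55.0% among lost intergenic peaks (23.4%). A match of letters is a description of the sequence and does not show a bound factor.

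Both the place and the neighbouring letters of the core differed from the table. Per 50 bases there were 18.5 cores per 100 lost peaks on either side of the centre, and 4.08 and 6.24 in the bins from 250 to 300 bases away, while all listed peaks had 3.999 to 4.90 throughout. The core was followed by C at 38.1% of 362 sites in lost peaks against 23.5% of sites in all peaks. At least 3 of the 4 bases before it were A or T at 45.03% of sites against 25.3%. The core was about as common in the 139 peaks with the lowest residual (64.0%) as in the 139 with the highest (61.2%), and median residual was 26.8% with a core and 27.5% without.

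**Figure D3:**
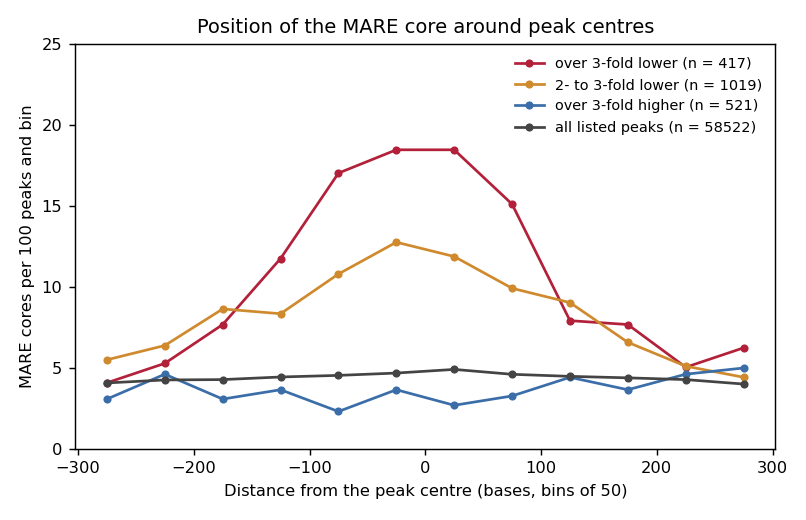
MARE cores per 100 peaks in bins of 50 bases (vertical axis) by distance from the peak centre (horizontal axis), for lost peaks, peaks 2- to 3-fold lower, peaks over 3-fold higher and all listed peaks. Lost peaks reach 18.5 at the centre and the 2- to 3-fold group 12.8, whereas all listed peaks stay between 3.999 and 4.90.

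Letters of other factor families were closer to the table. The AP-1 site TGANTCA was in 15.1% of lost windows, against 11.5% of all windows and 38.4% of those of peaks over 3-fold higher. GCTGANTCA, which joins part of a MARE core to that site, was in 6.47% against 2.13%, and in 5.57% of peaks over 3-fold higher. The ETS letters CAGGAA, read by endothelial factors such as Erg, were in 55.2% against 43.9%, and the GATA letters AGATAA in 23.5% against 16.0%. In peaks over 3-fold higher these shares were 52.8% and 31.7%, and in all peaks in introns or between genes 47.6% and 18.6%. Neither was thus particular to the lost peaks. The letters AGGTCA, read by nuclear receptors, were in 29.7% against 19.6%, and in 22.3% of peaks over 3-fold higher. The SOX letters ACAATG were in 13.2% against 14.4%, and in 32.2% of peaks over 3-fold higher. The CTCF letters AGGGGGC were in 4.32% against 8.13%, and in 5.37% of peaks over 3-fold higher.

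Among the deepest losses was the intron 10 peak of Mphosph9, which encodes an M-phase phosphoprotein, at 13.1% of control. The 4 control libraries measured 94.5, 128.9, 108.9 and 210.3 (normalised counts, replicates 1 to 4, the order used throughout), and the 4 MafLSEC-KO libraries 13.6, 15.9, 20.8 and 20.8. The means were 136 ± 51.7 and 17.8 ± 3.60 (SD, n = 4 each). Control replicate 4 stood well above the other controls here. The intergenic peak nearest to Caap1, which encodes an inhibitor of apoptosis, lay 170922 bases from its start and measured 219, 339, 310 and 381 in controls and 40.9, 41.3, 33.7 and 52.1 in MafLSEC-KO (13.4%). The Caap1 promoter peak itself, at 299 ± 26.4 and 248 ± 8.08, did not pass (SD, n = 4 each; adjusted p = 0.125, edgeR's quasi-likelihood test with Benjamini-Hochberg adjustment over 58268 peaks, the test used for every peak that was not lost).

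Others among the 15 deepest ranged from 13.5% to 16.6% of control. They included a peak in intron 5 of the zinc finger gene Zmat4, an intergenic peak 31.9 kilobases upstream of Gmpr, the purine enzyme GMP reductase, and an intronic peak of Nrg4, a ligand of the receptor ErbB4. Intergenic peaks nearest to the netrin receptor gene Unc5a, to Wdr11, to the filopodial myosin gene Myo10 and to the adhesion gene Nectin1, and an intronic peak of Dpy19l4 were among them too. The peak nearest to Stab1 and 3 at predicted genes belonged to them as well. Of these 15 peaks, 12 had a MARE core within the central 300 bases, and those of Mphosph9 and Zmat4 had none.

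The strongest control peaks among the 417 ended at higher levels. The peak with the second highest control mean, in intron 8 of Man1a, a Golgi mannosidase that trims N-glycans, had control values of 443, 409, 325 and 454 and MafLSEC-KO values of 135, 115, 139 and 109 (30.6%). Its libraries were tight in both groups. At the same gene another intronic peak rose in MafLSEC-KO, from 140 ± 28.3 to 283 ± 28.1 (log2 0.998, adjusted p = 0.000177), and the Man1a promoter peak did not pass (733 ± 42.3 and 791 ± 42.0, adjusted p = 0.663). An intron 1 peak of Cyp7b1, an oxysterol hydroxylase, measured 347, 318, 361 and 373 in controls and 92.9, 123.2, 100.3 and 120.6 in MafLSEC-KO (31.2%). A peak nearest to the magnesium transporter gene Nipa2, in an intron of Cyfip1, measured 328, 358, 251 and 338 in controls and 106.5, 111.3, 70.9 and 65.5 in MafLSEC-KO (27.8%).

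Of the 6 lost promoter peaks, the highest was that of Maf. It lay 665 bases upstream of the start on chromosome 8, from 115706763 to 115708356, with normalised counts of 450, 580, 496 and 765 in controls and 154.8, 98.6, 113.3 and 72.9 in MafLSEC-KO. The residual was 27.0%, 17.2%, 19.8% and 12.7% in MafLSEC-KO replicates 1 to 4, an order unlike that of the lost peaks as a whole, and 44 lost peaks had a smaller mean residual than its 19.2%. DNA that Cre has removed gives no reads whether or not it was open. No source used here gives the ends of the deleted part, so that removal and closing cannot be told apart at this peak. A second Maf peak, 120956 bases downstream of the start, measured 136, 179, 139 and 257 in controls and 37.2, 26.2, 48.4 and 43.2 in MafLSEC-KO (21.8%).

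Of the other lost promoter peaks, 4 were lower in control cells, with means of 39.7 to 86.3, at Ifitm10 (31.4% residual), the crystallin gene Crygn (32.0%) and 2 predicted genes (23.1% and 30.3%). A lost peak in the 5′ untranslated region of Jdp2, a leucine zipper repressor that pairs with AP-1 proteins, had a residual of 27.2%.

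At genes of the sinusoidal programme, 8 lost peaks lay at 6 of 26 genes with peaks: Stab1, Stab2, Fcgr2b, Dnase1l3, Dpp4 and Maf, the knocked-out gene, which held 2 of them. They were 3.02% of the 265 peaks at those genes, compared with 0.713% of the table. A lost peak 4.41 kilobases upstream of Stab2, a receptor that clears hyaluronan, measured 109, 151, 105 and 212 in controls and 28.5, 25.4, 18.2 and 34.98 in MafLSEC-KO (18.6%). Another in intron 31 measured 38.7, 39.5, 41.4 and 48.5 in controls and 14.9, 12.7, 14.7 and 12.7 in MafLSEC-KO (32.7%), a small but tight difference. The peak at the start of Stab2, annotated as an exon, fell as well (248 ± 70.8 to 116 ± 22.0, log2 -1.11, adjusted p = 0.000277), and 10 of the 16 other tested peaks of Stab2 were called lower and 0 higher.

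The lost peak nearest to Stab1, a scavenger receptor of the same family, lay 13.1 kilobases upstream of its start inside intron 13 of the neighbouring gene Nisch. It measured 67.3, 134.1, 73.1 and 163.9 in controls and 22.3, 13.5, 17.3 and 19.3 in MafLSEC-KO (16.5%). Controls fell into a lower and a higher pair, replicates 1 and 3 against 2 and 4, in the order of their depth. The Stab1 promoter peak did not pass (204 ± 63.5 and 184 ± 51.3, adjusted p = 0.622), while a peak in a Stab1 intron 2274 bases from the start fell (108 ± 16.2 to 63.2 ± 6.24, log2 -0.80, adjusted p = 0.00445).

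In intron 1 of Fcgr2b, the inhibitory Fc receptor of LSECs, the lost peak measured 70.2, 70.7, 78.6 and 129.4 in controls and 32.2, 25.4, 28.5 and 20.1 in MafLSEC-KO (30.5%). Control replicate 4 was high, and the other 3 controls lay between 70.2 and 78.6. Another intronic peak fell from 236 ± 91.8 to 79.3 ± 11.0 (log2 -1.60, adjusted p = 2.41e-05) and the promoter from 86.6 ± 23.5 to 51.9 ± 14.6 (log2 -0.78, adjusted p = 0.0341), and 6 of 9 other tested peaks were called lower. Dnase1l3, a secreted nuclease that digests chromatin in blood, had a lost peak in intron 4, at 211, 227, 130 and 307 in controls and 68.1, 64.4, 57.1 and 68.5 in MafLSEC-KO (29.5%). Its promoter fell from 295 ± 41.8 to 105 ± 23.2 (log2 -1.50, adjusted p = 4.59e-06) and so missed the 3-fold limit. Dpp4, a membrane peptidase, had a lost peak in intron 2, at 54.4, 44.7, 44.1 and 47.1 in controls and 17.3, 6.37, 16.4 and 21.6 in MafLSEC-KO (32.4%), and a stronger intronic peak that fell from 314 ± 62.6 to 117 ± 20.3 (log2 -1.44, adjusted p = 4.34e-06).

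**Figure D4:**
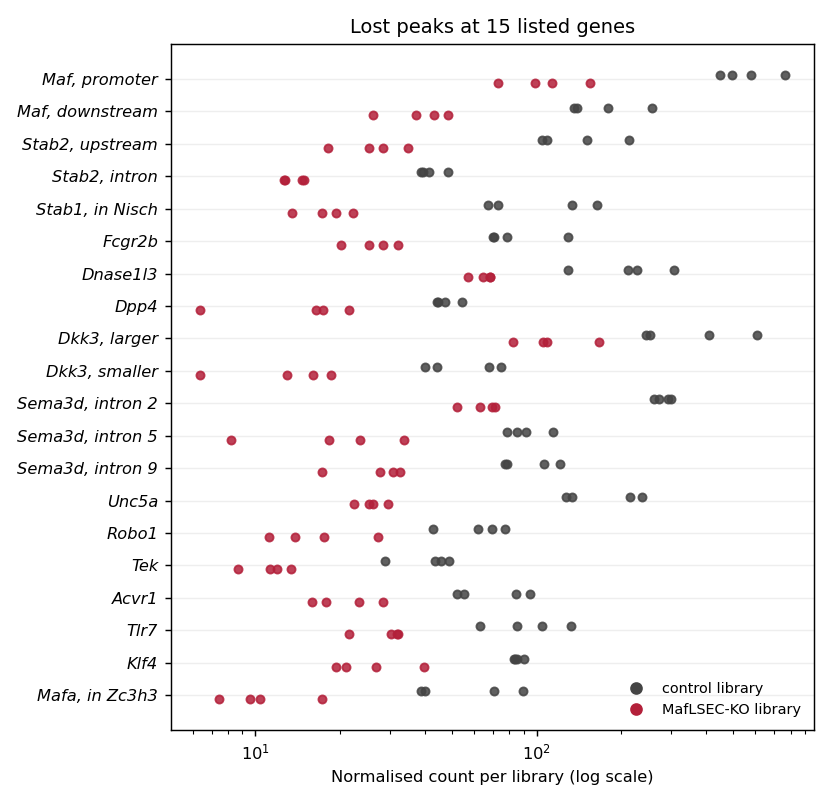
Normalised count of each control and MafLSEC-KO library (horizontal axis, log scale) at the 20 lost peaks of 15 genes that stand in the lists used here, 1 row per peak. By the choice of the peaks no knockout library reaches a control library, and the gap between the lowest control and the highest knockout library is widest at Unc5a (127 and 29.7), followed by Sema3d intron 2 (261 and 70.9).

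Genes of vascular guidance and secreted signals were represented too. Sema3d, a secreted semaphorin, had lost peaks in introns 2, 5 and 9. The intron 2 peak measured 292, 301, 261 and 272 in controls and 52.0, 62.8, 70.9 and 69.2 in MafLSEC-KO (22.7%), with little spread in either group. The other 2 had residuals of 22.6% and 28.4%, and 5 of the 6 other tested Sema3d peaks were called lower, the first of them from 361 ± 35.8 to 129 ± 16.3 (log2 -1.50, adjusted p = 1.18e-06). The peak 32561 bases upstream of Unc5a measured 133, 214, 127 and 236 in controls and 29.7, 26.2, 22.5 and 25.3 in MafLSEC-KO (14.6%). An exonic peak of Robo1, a Slit receptor, measured 77.3, 69.7, 42.7 and 61.9 in controls and 27.2, 17.5, 13.8 and 11.2 in MafLSEC-KO (27.7%).

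Dkk3, a secreted dickkopf protein, had 2 lost peaks in intron 3, within 5.01 kilobases from end to end. The larger measured 245, 412, 252 and 606 in controls and 105, 109, 82.1 and 167 in MafLSEC-KO (30.6%), with the controls again in the order of their depth, and the smaller had a residual of 23.9%. Tek, the angiopoietin receptor Tie2, had a lost peak in intron 4 (27.0%), but 0 of its 8 other tested peaks were called in either direction. Its promoter, at 342 ± 67.5 and 319 ± 12.6, did not pass (adjusted p = 0.579). The same held for Acvr1, a BMP type I receptor, with a lost intron 3 peak (29.9%) and 15 other tested peaks, none of them called. A lost peak 2.44 kilobases upstream of Tlr7, a sensor of RNA, had a residual of 30.1%. The lost peak nearest to the transcription factor gene Klf4, at 31.2%, lay 538 kilobases from its start. The peak counted for Mafa, another large Maf gene, at 18.7%, lay in an intron of Zc3h3, and the Mafa promoter did not pass (254 ± 37.2 and 243 ± 38.6, adjusted p = 0.735).

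Loss was spread over 382 nearest genes, and clusters were small. Of the 417 peaks, 52 were nearest to predicted genes and 23 to microRNA genes. In 73 of 257 cases with an annotated transcript, the peak lay in another gene than that of the nearest start, so a gene name marks a place and not a target. A total of 32 genes had 2 or more lost peaks, and Sema3d, Dpy19l4 and Zmat4 had 3 each. With a limit of 50 kilobases between neighbours, 59 lost peaks formed 28 runs, 3 of them with 3 peaks. The Zmat4 run was the deepest, with residuals of 13.5% to 18.04% in intron 5, and Zmat4 had 6 listed peaks in all. Rarb, the retinoic acid receptor beta gene, had 2 lost intronic peaks (27.3% and 32.6%), 10 of 15 other tested peaks called lower, and a promoter that fell from 667 ± 91.5 to 363 ± 22.8 (log2 -0.90, adjusted p = 2.61e-05). Every autosome and the X chromosome held lost peaks, from 0.472% of listed peaks on chromosome 3 to 1.08% on chromosome 4.

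All 412 lost peaks that entered the edgeR test were called lower, which the choice made likely, whereas 6.45% of all tested peaks were called lower and 8.97% higher. The remaining 5 had too few reads. Without a fold limit, every MafLSEC-KO value was below every control value at 7.19% of all listed peaks. The peaks that were not lost can be read with a test, although they come from the same libraries. At the 368 genes that also had other tested peaks, 422 of 2638 of these (16.0%) were called lower, against 5.79% of all tested peaks outside the 417, and 162 (6.14%) were called higher, against 9.04%. The median log2 fold change was -0.15 at the other peaks of these genes and -0.00 over all tested peaks outside the 417. At 196 genes another peak was called lower, at 93 a peak was called higher, at 54 both, and at 133 neither. The matching shares over all genes were not counted, so nothing is read from these gene counts. A gene with many listed peaks weighs more in the peak counts and more readily holds a called peak.

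Most promoters of the same genes were not called in either direction, which does not show that they were unchanged. Of 171 promoter peaks at 159 of these genes, 151 were not called, 12 (7.02%) were lower and 8 (4.68%) were higher, while 1.58% and 5.49% of all tested promoter peaks outside the 417 were called lower and higher. Besides Dnase1l3, Rarb and Fcgr2b, those called lower included Ust, a sulfotransferase gene (232 ± 20.1 to 116 ± 29.1, log2 -1.04, adjusted p = 0.000509), and Ctnnal1, the alpha-catulin gene (277 ± 9.37 to 158 ± 15.3, log2 -0.83, adjusted p = 0.000401). Among those called higher were Gask1b (196 ± 3.83 to 346 ± 11.7, log2 0.80, adjusted p = 0.000223) and the mitotic kinase gene Plk1 (144 ± 16.6 to 265 ± 17.97, log2 0.86, adjusted p = 0.000311). Ust, Gask1b and Plk1 were picked after their values had been seen.

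The share of peaks called lower was higher close to a lost peak than far from it. Within 2 kilobases, 13 of 57 tested peaks (22.8%) were called lower and 1 (1.75%) higher. The share called lower was 22.8% from 2 to 5 kilobases, 19.3% from 5 to 20 kilobases, 13.6% from 20 to 50 kilobases, 9.23% from 50 to 100 kilobases and 7.04% from 100 to 200 kilobases. The share called higher ran the other way, from 1.34% at 2 to 5 kilobases to 7.502% at 100 to 200 kilobases. Over the same bins the median log2 fold change moved from -0.37 to -0.02. Neighbouring peaks are not independent of one another, and the trend was not tested.

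**Figure D5:**
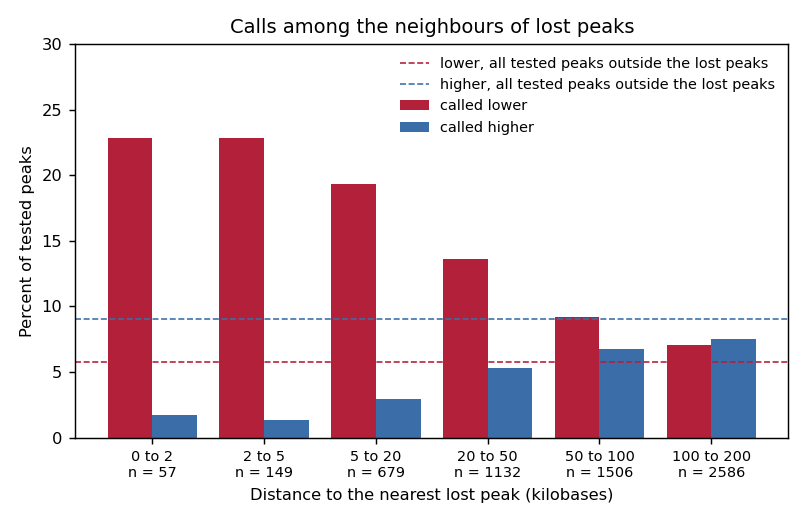
Percent of tested peaks called lower or higher in MafLSEC-KO (vertical axis) by distance to the nearest lost peak (horizontal axis, kilobases), with the number of peaks under each pair of bars. Dashed lines give the shares over all tested peaks outside the 417, 5.79% lower and 9.04% higher, which the bars approach with distance.

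The counts in the gene lists are to be read against the table as a whole, in which 0.713% of listed peaks were lost and, outside the 417, 5.79% of tested peaks were called lower and 9.04% higher. Of the 83 peaks at 9 genes that the study named as targets with c-Maf footprints, 3 were lost (3.61%), at Stab2 and Dnase1l3, and 24 of 80 others (30%) were called lower and 3 (3.75%) higher. The study named most of those genes as activated by c-Maf and the rest as repressed, and these counts pool both. It chose them by c-Maf footprints lost in these samples and by changed RNA in its bulk RNA-seq. Their direction here is thus not independent evidence. At sinusoidal genes, 53 of 256 other tested peaks (20.7%) were called lower and 16 (6.25%) higher. Scavenging and endocytosis genes had 4 lost peaks of 176 (2.27%), homeostatic angiocrine factors 2 of 85 (2.35%, both at Dkk3) and guidance genes 5 of 298 (1.68%). Immune receptor and antigen presentation genes had 2 of 124 (1.61%), at Fcgr2b and Tlr7. The lists share genes and are not separate sets. The 4 scavenging peaks, at Fcgr2b, Stab1 and Stab2, were also counted in the sinusoidal list. So were the lost peaks at Maf and those at the footprint targets. Genes of MAF, BACH and AP-1 factors had 3 of 178 (1.69%). Of those 3, 2 were at Maf, the knocked-out gene, and 1 was counted for Mafa but lay inside Zc3h3. Endothelial transcription factors, VEGF and angiopoietin signalling, and BMP and TGF-beta signalling had 1 each, of 390, 120 and 236 (0.256%, 0.833% and 0.424%). Profibrotic angiocrine factors, continuous endothelium and Notch genes had 0 of 90, 116 and 77, and at the share of the table lists of this size would hold hardly any, so nothing is read from these counts. Among their peaks 22 (24.4%), 28 (24.1%) and 10 (13.0%) were called higher and 6 (6.67%), 5 (4.31%) and 0 lower.

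Summed signals, given as CPM (counts scaled to library depth), overlapped between the groups for some lists and not for others. The sinusoidal list overlapped, at 4062 to 5928 CPM in controls and 4476 to 4856 CPM in MafLSEC-KO. Every MafLSEC-KO library was below every control for scavenging and endocytosis (2936 to 3704 CPM in controls, 2855 to 2925 CPM in MafLSEC-KO), homeostatic angiocrine factors (1570 to 1873 CPM and 1358 to 1461 CPM), immune receptors and antigen presentation (1714 to 1845 CPM and 1622 to 1692 CPM) and the footprint targets (1345 to 1704 CPM and 1084 to 1202 CPM). These sums include the lost peaks of their lists, and lists that share genes do not give independent sums. Every MafLSEC-KO library was above every control for continuous endothelium (1817 to 2138 CPM and 2151 to 2385 CPM) and profibrotic angiocrine factors (956 to 1013 CPM and 1134 to 1187 CPM). The part of continuous endothelium in the lost peaks was not tested.

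Markers of other liver cells held no lost peak, but the lists were short, with 20 listed peaks for hepatocytes, 16 for Kupffer cells and macrophages, 11 for lymphocytes, 10 for stellate and mural cells, 8 for cholangiocytes and 21 for lymphatic endothelium. Their summed levels overlapped between the groups, for example 139 to 157 CPM in controls and 143 to 155 CPM in MafLSEC-KO for hepatocytes, 131 to 156 CPM and 131 to 155 CPM for macrophages and 60.5 to 74.8 CPM and 57.5 to 64.7 CPM for stellate and mural cells. Lymphatic endothelium genes had 229 to 359 CPM in controls and 225 to 265 CPM in MafLSEC-KO, and 4 of their 20 tested peaks (20%) were called lower and 2 (10%) higher. In the study's flow cytometry of isolated cells, the share positive for endothelial markers was lower in MafLSEC-KO than in controls. The share positive for a myeloid marker was higher. Whether those preparations entered these libraries is not stated. The part of any other cell type in the lost peaks was not tested.

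The limit of 3-fold cut through a continuous range. Just inside it lay peaks nearest to Mir1231 (33.2%), Arhgap27 (33.3%) and Kmt2e (33.3%), and just outside it peaks nearest to Arrdc3 (33.3%), Cdk18 (33.4%) and Mylip (33.4%). The Kmt2e peak, in an intron of Srpk2, measured 228, 256, 150 and 308 in controls and 64.4, 67.6, 70.0 and 111.6 in MafLSEC-KO. A further 25 peaks had the 3-fold lower mean but overlapping libraries, and their median control mean was 23.5, under that of the lost peaks.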

How the data were processed

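ATAC-seq was analysed from 1 table of 58522 peaks in 8 libraries. Per the labels and the methods, reads were aligned to mm10 with Bowtie2, peaks were called with MACS2, annotated with HOMER 4.11, merged and counted with bedtools 2.30.0, and compared with DESeq2 1.42.1. No source used here gives a Tn5 shift or says whether peaks were called per library. The authors deposited raw read counts per peak. The deposited normalised signal is named TMM, but each column equals the counts times 1 factor per library. The deposited RPKM values and their sum are scaled to width and depth. The authors' own comparison (a log2 fold change, its error, a test score, and p-values) was not used. The deposited score of distance is signed bases to the nearest start. No per-sample column was left unused.

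Lost peaks were chosen on the normalised signal. Counts were tested with edgeR 4.0.16 in R 4.3.3 (TMM, filterByExpr, quasi-likelihood test, two-sided, Benjamini-Hochberg adjustment, threshold 0.05); 254 peaks were removed by the filter. Summaries used Python 3.11.15 with pandas 2.3.3 and numpy 2.4.6. The fit was tested on simulated data over 58268 peaks. It recovered 22% of 1.5-fold, 56% of 2-fold, 90% of 3-fold and 94% of 4-fold changes, with 50 peaks at each fold. A peak that was not called may thus still have changed by 2-fold or less. Sequence came from RefSeq's mm10 (GRCm38) genome. The members and gene lists were chosen with earlier results of these data known. Named were Maf, the 15 deepest losses, the 10 highest control means, promoters, genes with several lost peaks (examples), listed genes, 3 peaks on each side of the limit and, for these, the other peak with the smallest p; predicted genes were passed over by name, and the results at some genes are not reported here. Alternatives covered fold limits, other scalings, the window, DESeq2 1.42.0, filtering, a depth covariate, a replicate block and libraries left out. Wilson intervals cover counting error only.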

Additional observations from a re-analysis of the deposited data

Results flagged for a closer look

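Among the named lost peaks, 4 had 1 library far from the other 3 of its group by Dixon's test, which chance does in about 1 in 20 groups. At the Cep83 peak, which lies in an intron of Plxnc1, control replicate 4 had a normalised count of 323.5, and the lowest control had 161.2. At the Fcgr2b peak, control replicate 4 had 129.4 and the lowest control 70.2. At the Rarb peak with the lower residual, MafLSEC-KO replicate 1 had 37.2 and the highest MafLSEC-KO library 53.3. At the Kmt2e peak, MafLSEC-KO replicate 4 had 111.6 and the lowest MafLSEC-KO library 64.4. Control replicate 4 was also the deepest library, and the part of depth was not tested.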

How the results depend on the processing

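The number of lost peaks was 1436 with a 2-fold limit, 138 with a 4-fold limit and 676 without control replicates 1 and 3. With a 2-fold limit the residual was 39.2% and the share with a MARE core 49.7%. With a 4-fold limit the residual was 22.0%, the intergenic share 44.9% and the median distance 40998.5 bases. The MARE core was in 51.1% of central 200-base windows and 70.3% of whole peaks. Leaving out 1 library at a time gave 381 to 501 lost peaks, 1.01% to 1.94% at promoters, 37.3% to 40.7% intergenic, a distance of 30809 to 38087 bases, a residual of 27.0% to 28.2% and a MARE core in 54.6% to 60.9%. Both the distance of 38087 bases and the share of 54.6% were without control replicate 4. Other peaks at the same genes were called lower at 307 to 445 places and higher at 112 to 182. A covariate of log2 library total gave 629 lower (23.8%) and 252 higher (9.55%), beside 10.7% and 14.8% of peaks outside the 417. Correlations of same-numbered libraries were 0.191, 0.0967, 0.257 and 0.442, and those of differently numbered libraries ran from -0.323 to 0.212. Likeness was not confined to the same number. Replicates 1 and 3, the shallower libraries of each group, correlated positively across numbers (0.212 and 0.154). So did replicates 2 and 4 (0.150 and 0.0678), and all other differently numbered pairs were negative. No source used here states a pairing, so the main test had no block. A replicate block gave 610 lower (23.1%) and 241 higher (9.14%), beside 10.1% and 14.3% of peaks outside the 417. The causes were not tested. Depth limits the weak peaks most: the median count at a lost peak was 16 to 28 in MafLSEC-KO libraries.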
